A study of Cricetulus griseus with 8 samples.

Results

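In Chinese hamster ovary (CHO) cells that expressed an RNG140-GFP fusion protein, 64 of 34490 listed transcripts had RNA more than 4-fold above that of control CHO cells in every pairing of libraries. They were chosen from the RNA libraries alone. A transcript needed at least 2 CPM (counts scaled to the library's column sum) in both RNG140-GFP RNA libraries, and the lower of these values had to exceed 4 times the higher control value. Its listed length had to lie between 61 and just under 2500, and the 37 lowest-numbered identifiers were left out. Transcripts with the same counts in all 8 libraries are 1 measurement, so the 64 transcripts form 58 sets. The RNA values therefore define the group and are described without a test, whereas the footprint libraries took no part in the choice and were tested.

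CHO cells are an established hamster ovary line. The study measured messenger RNA by sequencing and ribosome footprints by ribosome profiling in control CHO cells, labelled WT, and in CHO cells labelled as expressing RNG140-GFP. Each of the 4 groups (control RNA, RNG140-GFP RNA, control footprints, RNG140-GFP footprints) had 2 libraries. The labels name no treatment, no GFP-only control, no promoter and no cell clone, and they do not say whether the 2 libraries of a group came from separate cultures, so the spread between them may be technical. Library totals were 22849263 to 35875108 counts for RNA and 4908885 to 16928311 for footprints, and the second control footprint library was the shallowest.

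RNG140 (caprin2) binds RNA and is found in granules of the cytoplasm, in which messenger RNAs are held with proteins that govern their translation. A ribosome shields the stretch of messenger RNA it sits on from nuclease, and sequencing these shielded fragments counts ribosomes on each transcript. The footprint level rises when a messenger RNA becomes more abundant and also when each copy carries more ribosomes, and the ratio of footprints to RNA, called translation efficiency, separates these contributions. Several transcripts of 1 gene, called isoforms, share exons, so that a read from a shared exon fits each of them.

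The tables give transcript identifiers without gene names, and 0 identifiers matched the reference gene table, so transcripts are called here by their listed length. The length has no stated unit and was read as a coding length, probably in codons. No sequence of a member was found in the sources used here, and none is printed. Presumed isoforms were joined into groups where identifier numbers were consecutive and the transcripts lay within 3 lines of each other in the tables. The 64 transcripts then fell into 44 groups, of which 31 had 1 member transcript, 8 had 2, 3 had 3 and 2 had 4.

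Together the 58 sets took 0.0249% and 0.0246% of the counts in the control RNA libraries and 0.362% and 0.366% in the RNG140-GFP RNA libraries. In footprints they took 0.0286% and 0.0362% of control counts and 0.584% and 0.608% of RNG140-GFP counts. The share was thus above the controls in both assays, by far more than the replicates differed. In RNA this follows from the choice of the transcripts. Presumed isoforms with unlike counts each enter these sums, so a shared read can be counted more than once. The sets of lengths 909 and 763, presumed isoforms, had mean RNG140-GFP RNA of 605 and 545 CPM and are the largest parts. Bulk libraries do not show whether many cells or few carried the added RNA, since fewer cells with a transcript and less RNA per cell cannot be told apart.

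Mean RNA CPM in RNG140-GFP cells, a scale not corrected for length, ran from 2.12 to 605 over the sets, with a median of 17. Of the 58 sets, 9 lay over 100 CPM, 26 between 10 and 100 CPM and 23 under 10 CPM. Replicates were close: the ratio of replicate 1 to replicate 2 in RNG140-GFP RNA lay between 0.671 and 1.24. Over the 57 sets with a control RNA count, the ratio of pooled RNG140-GFP to pooled control RNA (summed counts over summed totals) had a median of 9.11-fold and ran from 4.16-fold to 2391-fold. It exceeded 8-fold in 35 of the 58 sets, 16-fold in 18 and 64-fold in 10, where the 1 set with no control count is taken at its lower bound. Control RNA rested on fewer than 10 counts in 10 sets.

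**Figure D1:**
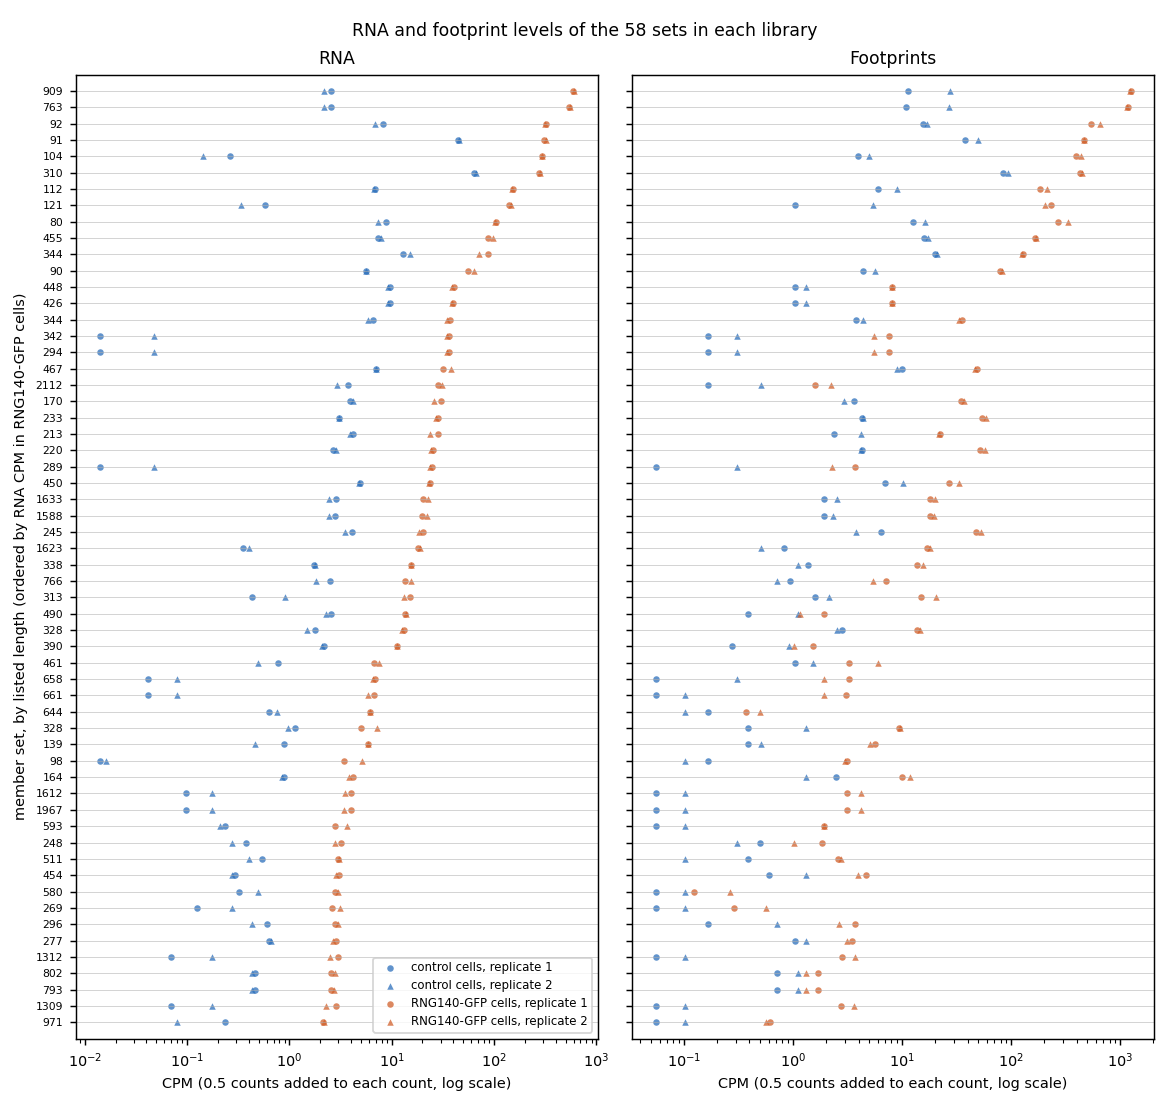
Levels of the 58 sets in each of the 8 libraries, in CPM on a log axis with 0.5 counts added to each count; RNA is on the left and footprints on the right, control cells are blue, RNG140-GFP cells orange, circles replicate 1 and triangles replicate 2. The RNA columns separate because the sets were chosen that way, and in footprints both RNG140-GFP points lie to the right of both control points in 58 of 58 sets.

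Footprints, measured in libraries that the choice did not use, were higher in RNG140-GFP cells for nearly every set. Both RNG140-GFP footprint values lay above both control values in 58 of 58 sets, against 49.6% of all 15427 sets tested in footprints. The 58 include 4 sets too low to be tested, which the 49.6% leaves out. In the 9 sets without a control footprint count, any count in both RNG140-GFP libraries gives this result. In the fit of all transcripts (edgeR quasi-likelihood test on the 4 footprint libraries, adjusted p under 0.05), 50 sets rose, 4 were tested without a call and 4 were too low to be tested. No member set fell. Among all 15427 tested sets, 24.4% were called rising. The call came with a fitted change of more than 4-fold in 46 member sets, against 0.745% of all tested sets, and this count was the same with sets that lack control counts set to their lower bound. Some of the 46 entered the test only through their RNG140-GFP footprints, as the next paragraph describes, and the count was not split by this.

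Part of these calls could hardly have come out otherwise. To enter the test, a transcript needed about 0.943 CPM in 2 libraries, and 24 of the 54 tested sets reached this through the RNG140-GFP libraries alone. The other 30 sets reached it in both control libraries as well, and all 30 rose, where 23.9% of the 14839 tested sets with such control levels were called rising. Members were chosen for higher RNA, and footprints rise with RNA. The 14839 sets were not matched on RNA change, so these shares do not compare like with like. By isoform group, 40 of 44 had a tested set and 38 held one that rose, where 25.6% of the 10934 isoform groups with a tested set did. The 38 include groups in which every tested set entered through the RNG140-GFP libraries alone, so this count is a description.

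The median footprint change over the 58 sets was 3.35 on the log2 scale (mean of the log2 CPM differences with 0.5 counts added), beside 0.16 over all tested sets. Column sums put footprint changes 0.14 higher than TMM scaling, the edgeR default used in the fit, in which all tested sets had a median of 0.01. As a ratio of pooled counts, with sets that had no control footprint count at their bound of 3 counts over the group, the median was 10.5-fold. Members therefore lay far above the bulk of transcripts on either scaling.

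The most RNA counts in RNG140-GFP cells fell on ENSCGRT00000001699, of listed length 909, and after it on ENSCGRT00000001700, of listed length 763. They form an isoform group with a transcript of length 121 and appear to share most reads. RNA of the 909 transcript was 2.56 and 2.18 CPM in control and 598 and 611 CPM in RNG140-GFP libraries. Its footprints were 11.2 and 27.5 CPM in control and 1244 and 1237 CPM in RNG140-GFP libraries. Both RNG140-GFP values were within a few percent of each other, whereas the control footprints differed by 2.46 times between replicates. The fitted footprint change was 5.99 ± 0.18 on the log2 scale (SE; edgeR adjusted p = 1.07e-15). The 763 transcript went from 2.54 and 2.18 to 536 and 554 CPM in RNA and from 10.8 and 26.7 to 1171 and 1152 CPM in footprints, a change of 5.94 ± 0.18 (SE) on the log2 scale. Either change depended on the control library kept: without the first control footprint library they were 5.35 and 5.30, and without the second 6.64 and 6.59. The 121 transcript had 20 and 10 control RNA counts and reached 141 and 145 CPM, and its footprints went from 0.996 and 5.3 CPM to 233 and 204 CPM. Its fitted change was 5.22 without the first control footprint library and 7.61 without the second. All 3 rose in footprints, and their 2 groups of libraries did not overlap.

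Of the 9 member sets over 100 CPM, 6 had a listed length under 130. The share of such lengths among other transcripts over 100 CPM was not worked out, so 6 of 9 may not be particular to the members. The transcript of length 104, listed 2 times with the same counts, had 9 and 4 counts in control RNA (0.251 and 0.128 CPM) and 298 and 294 CPM in RNG140-GFP RNA. Its footprints went from 3.87 and 4.89 CPM to 395 and 433 CPM, a change of 6.45 ± 0.12 (SE) on the log2 scale. It had the largest footprint change of the 58 sets by mean log2 CPM, at 6.55. The transcript of length 92 started from a higher control level. Its RNA was 8.14 and 6.82 CPM in controls and 320 and 318 CPM in RNG140-GFP cells, and its footprints were 15.4 and 16.7 CPM against 533 and 647 CPM, a change of 5.06 ± 0.11 (SE).

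The transcript of length 91, also listed 2 times with the same counts, ended at a similar RNA level but was already expressed in control cells. Its RNA was 44.2 and 45 CPM in controls and 309 and 322 CPM in RNG140-GFP cells, and its footprints were 37.9 and 49.7 CPM against 469 and 465 CPM (fitted change 3.29 ± 0.096, SE). RNA of the transcript of length 112 went from 6.86 and 6.76 to 152 and 151 CPM, and its footprints from 5.97 and 8.96 to 182 and 215 CPM (4.66 ± 0.14). The transcript of length 80, the shortest member, had 8.86 and 7.37 CPM of control RNA and 103 and 102 CPM of RNG140-GFP RNA. Its footprints rose from 12.5 and 16.1 CPM to 268 and 334 CPM (4.28 ± 0.13). In each of these 5 short transcripts the 2 RNG140-GFP libraries were close to each other and far above both controls.

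Among the sets over 100 CPM the smallest difference was that of the transcript of length 310. Its RNA was 63.6 and 66.9 CPM in controls and 277 and 282 CPM in RNG140-GFP cells, close to the limit of the choice. Its footprints rose from 83.5 and 94.3 CPM to 431 and 449 CPM, a change of 2.16 ± 0.079 (SE; edgeR adjusted p = 3.85e-14). The transcript of length 455, the remaining one among the 10 sets with the most footprints, went from 7.33 and 7.88 to 87.2 and 97.6 CPM in RNA. Its footprints went from 15.7 and 17.1 to 165 and 171 CPM (3.21 ± 0.097). Per 100 units of listed length, the mean RNA level in RNG140-GFP cells was highest for the transcripts of length 92 and 91, at 347 CPM each, before that of length 104 at 284 CPM, and the 909 transcript had 66.5 CPM. Among the 9 sets over 100 CPM, each of the 6 with a length under 130 thus had more RNA per length than the 3 longer ones.

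Of the 26 sets between 10 and 100 CPM of RNG140-GFP RNA, all were tested and 24 rose in footprints, with fitted changes over the 26 between 1.16 and 5.23 on the log2 scale and a median of 3.05. Among all tested sets with such RNA levels 26.4% were called rising, and 8 of the 26 members entered the test through the RNG140-GFP libraries alone. Of the 23 sets under 10 CPM, 19 were tested and 17 rose, where 18.3% of tested sets with such RNA levels did. Since 16 of these 19 entered through the RNG140-GFP libraries alone, the count is a description. Standard errors grew with falling counts: they were 0.079 to 0.22 in the highest class and reached 0.78 in the middle and 0.81 in the lowest class among sets with a control footprint count. In 9 of the 23 low sets no control footprint was counted.

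A single set had no RNA count in either control library, a transcript of length 98. Its RNA reached 94 and 116 counts in RNG140-GFP cells (3.41 and 5.08 CPM), at least 93.1-fold above a control floor of 3 counts over both libraries. Footprint counts were 1 and 0 in the control libraries, against 38 and 50 in the RNG140-GFP libraries, a ratio of 42.2 with an exact 95% interval of 7.38 to 1685. Intervals of such ratios cover counting error only.

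The 5 groups with at least 3 member transcripts hold 17 transcripts in 14 sets, and they differed in how footprints accompanied RNA. One is the group of the 909 transcript. Another has 4 transcripts, of lengths 342 (2 with the same counts), 294 and 289. RNA of the 342 transcript was 0 and 1 counts in controls and 1002 and 795 counts, or 36.3 and 34.8 CPM, in RNG140-GFP cells. The pooled ratio of 2391-fold, the highest of all members, has an exact 95% interval from 429 to 94475 and rests on that 1 control count. Its footprints were sparse, at 1 and 1 counts in controls and 91 and 94 counts in RNG140-GFP cells (0.111 and 0.204 against 7.48 and 5.55 CPM). They rose by 5.22 ± 0.52 (SE; edgeR adjusted p = 8.61e-08). The 294 transcript held nearly the same counts, at 0 and 1 against 1002 and 793 in RNA and 1 and 1 against 92 and 94 in footprints, and its footprints rose by 5.23 ± 0.52. The 289 transcript had fewer, at 0 and 1 against 687 and 542 in RNA and 0 and 1 against 45 and 38 in footprints, and rose by 4.97 ± 0.78. With so few control counts its change was 3.61 without the first control footprint library and 8.16 without the second. All 3 sets entered the test through the RNG140-GFP libraries alone.

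The third group has 4 long members, of lengths 1967, 1612, 1312 and 1309, at low levels. RNA of the 1967 transcript was 3 and 5 counts in controls and 109 and 77 counts in RNG140-GFP cells. No footprint was counted on it in controls, against 38 and 71 in RNG140-GFP cells, which makes its footprints at least 17.4-fold higher. The shorter transcripts of the group had nearly the same counts. The 1612 transcript had 3 and 5 RNA counts in controls against 111 and 79, and 0 and 0 footprint counts against 38 and 71. For the 1312 transcript these were 2 and 5 against 81 and 57 in RNA and 0 and 0 against 34 and 62 in footprints. The 1309 transcript had 2 and 5 against 78 and 52 in RNA and 0 and 0 against 33 and 61 in footprints. Their footprints were thus at least 17.4-fold, 15.3-fold and 15-fold higher. All 4 rose in footprints, and all 4 entered the test through the RNG140-GFP libraries alone.

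In the remaining groups of this size footprints were not called. The group of lengths 490 (2 with the same counts) and 390 had moderate RNA: the 490 transcript went from 2.56 and 2.24 to 13.5 and 13.8 CPM. Its footprint counts were 3 and 5 in the control libraries, against 23 and 19, or 0.332 and 1.02 CPM against 1.89 and 1.12 CPM, so the closest libraries nearly met. The 390 transcript went from 2.15 and 2.05 to 11.2 and 11.2 CPM in RNA, with 2 and 4 footprint counts in controls against 18 and 17. The fitted change of the 490 transcript was 1.16 ± 0.54 (SE; edgeR adjusted p = 0.0805), and for the 390 transcript 1.30 ± 0.58 (edgeR adjusted p = 0.0693). Both were called without the second control footprint library, at 1.94 and 2.25, without the second RNG140-GFP footprint library, at 1.54 and 1.60, and with column sums in place of TMM, at 1.32 and 1.46. Without the first control footprint library the changes were 0.36 and 0.41, and neither was called. The group of lengths 802 and 781 (the same counts) and 793 had RNA of 0.446 and 0.416 CPM in controls and 2.54 and 2.8 CPM in RNG140-GFP cells for the 802 transcript. Its footprints were 6 and 5 counts against 20 and 22, a change of 0.71 ± 0.45 (SE; edgeR adjusted p = 0.201), the smallest of the tested members. The 793 transcript went from 16 and 13 to 70 and 62 counts of RNA, and had the same 6 and 5 against 20 and 22 in footprints. Neither change was called, and the pooled footprint ratio of 1.83 has an exact 95% interval of 0.926 to 3.94.

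The 4 sets too low for the footprint test have lengths 580, 644, 269 and 971. The 580 transcript went from 11 and 15 to 77 and 67 RNA counts, but RNG140-GFP footprints numbered 1 and 4, with 0 in both controls. For the 644 transcript, 168 and 140 RNA counts went with 4 and 8 footprint counts, and controls held 1 and 0 footprint counts. The 269 transcript had 3 and 9 and the 971 transcript 7 and 9 footprint counts in RNG140-GFP cells, and neither had any in controls. These 4 thus had RNA in RNG140-GFP cells but at most 9 footprint counts in any library.

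**Figure D2:**
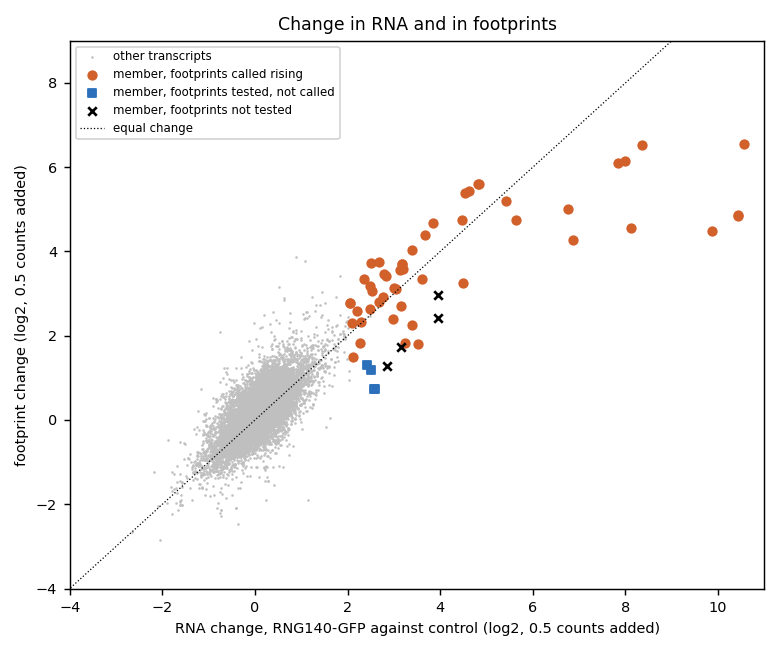
Change in footprints against change in RNA (log2, RNG140-GFP against control, 0.5 counts added to each count) for the 58 member sets and, in grey, 14203 other sets within the same length and RNG140-GFP CPM limits; the dotted line marks equal change. Members lie to the right by construction, those called rising in footprints are orange circles, the 4 without a call are blue squares near the bottom of the group, and the sets farthest right lie below the line.

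Footprint and RNA changes of the 58 sets went together across sets, with Pearson r = 0.72 and Spearman rho = 0.75. This is a description over transcripts that share libraries and, within groups, reads. The footprint change was smaller than the RNA change in 29 sets and larger in the other 29. The median difference was -0.10 on the log2 scale, with a range from -5.58 to 1.23. The footprint change was smaller by more than 1 in 21 sets and larger by more than 1 in 2. These differences contain the RNA values used in the choice, which favours transcripts whose control RNA happened to be low.

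The sets with the lowest control RNA were set apart next. Picking them by low control RNA in itself favours a control share that is higher in footprints than in RNA. In 10 sets, from 5 isoform groups, control RNA was under 1% of the RNG140-GFP level. It lay between 0.0418% and 0.707% in those with a control RNA count. In the 9 of them with a control footprint count, control footprints were 1.01% to 2.94% of the RNG140-GFP level. In 5 of the 9 this rests on 1 or 2 control footprint counts, where a single count alone gives about such a share. The other 4 had at least 10 control footprint counts. Among these, the shares were 0.0655% in RNA and 1.01% in footprints for the transcript of length 104, 0.395% and 1.36% for the 909 transcript, 0.436% and 1.42% for the 763 transcript and 0.313% and 1.16% for the 121 transcript. Control footprints of these 4 sets, of which 3 are presumed isoforms, thus stood at a higher share than control RNA. The 661 transcript, the remaining one of the 10, had no control footprint count. Control footprints of the 909 and 763 transcripts differed between replicates, with a ratio of replicate 2 to 1 of 2.46 for both. The median of this ratio was 1.19 over the 23 member sets with at least 10 counts in both control libraries, and 1.01 over 13162 other sets, of which 99% lay under 1.66. What set the control footprint level of these transcripts was not tested.

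**Figure D3:**
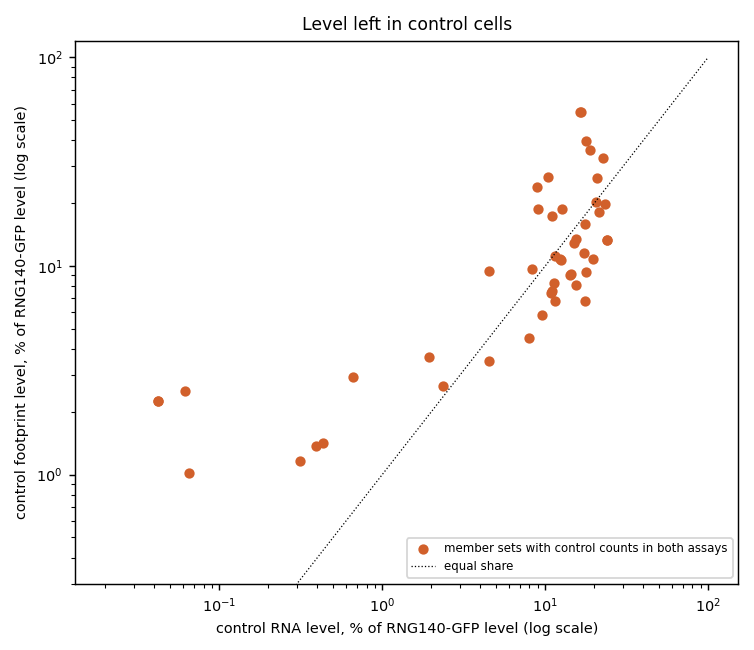
Control level as a percentage of the RNG140-GFP level, RNA on the horizontal and footprints on the vertical log axis, for the 48 member sets with control counts in both assays; the dotted line marks equal shares. Sets with control RNA over about 5% scatter around the line, whereas those under 1% lie above it, between 1% and 3% in footprints. Of the latter, 4 had at least 10 control footprint counts and the others rest on 1 or 2. Picking sets by low control RNA in itself favours a place above the line.

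Footprint CPM over RNA CPM, the level of translation efficiency, was next compared among members in RNG140-GFP cells, where their counts are highest. Its median over the 58 sets was 0.964, with quartiles of 0.442 and 1.44. The 14203 other sets within the same length and CPM limits had a median of 0.763, with quartiles of 0.457 and 1.18. Members spread more widely between the quartiles and at the low end, where 9 sets (15.5%) lay under the 5th percentile of the others, a ratio of 0.19. Over the 95th percentile, a ratio of 2.47, lay 3 of the 58 sets, close to the 5% of the others found there.

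The 9 sets with few ribosomes per RNA come from 6 isoform groups. The lowest ratio was that of the 580 transcript, at 0.0556, and the next that of the 2112 transcript, the longest member, at 0.0635. RNA of the latter was 3.76 and 2.88 CPM in controls against 28.3 and 30.7 CPM in RNG140-GFP cells. Its footprints were 1 and 2 counts in controls, against 19 and 37. The 170 transcript took a like share of RNG140-GFP RNA counts, at 30.2 and 25.6 CPM, but its footprints were 34.6 and 37 CPM and its ratio was 1.28. Ratios of the 644, 490, 390, 289 and 269 transcripts lay between 0.0656 and 0.136, and those of the 342 and 294 transcripts were 0.183 and 0.185. The 3 sets with the highest ratios have lengths 80, 164 and 245, with ratios of 2.94, 2.74 and 2.61. Over the 4 pairings of RNG140-GFP libraries the ratio of the 80 transcript ran from 2.59 to 3.29 and that of the 2112 transcript from 0.0509 to 0.0771, so their distance exceeded the spread between libraries many times.

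In control cells the ratio could be formed for 48 sets with at least 10 control RNA counts. Its median was 1.07, beside 1.1 for the same sets in RNG140-GFP cells, and the control ratio was the higher in 20 of 48. The other transcripts had a median of 0.723 in controls. For the 448 and 426 transcripts, which had almost the same counts, the ratio was low in both cell populations, at 0.117 in controls and 0.204 in RNG140-GFP cells. The 2112 transcript likewise had 0.078 and 0.0635. The group of the 909 transcript had control ratios of 7.17 to 8.16 against 1.53 to 2.13 in RNG140-GFP cells. Control RNA counts behind these were 92 and 68 for the 909 transcript, 91 and 68 for the 763 transcript and 20 and 10 for the 121 transcript. Their control footprints differed between replicates, at 11.2 and 27.5, 10.8 and 26.7, and 0.996 and 5.3 CPM in the same order. The control ratios are thus imprecise. The highest control ratio of the 48 sets was 23.1, for the member of length 104, on 9 and 4 control RNA counts. Its RNG140-GFP ratio was 1.4. The choice favours low control RNA, which raises a control ratio.

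Listed lengths of the members ran from 80 to 2112. Their median was 367, with quartiles of 246 and 660, beside 427 (243 and 708) for the other sets within the same limits. Lengths under 130 made up 13.8% of the members (8 sets) and 7.88% of the others, and lengths over 1000 made up 13.8% and 12.6%. With 1 set per isoform group, 15.9% of members and 8.08% of others were under 130. These shares rest on 8 sets and carry no test.

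**Figure D4:**
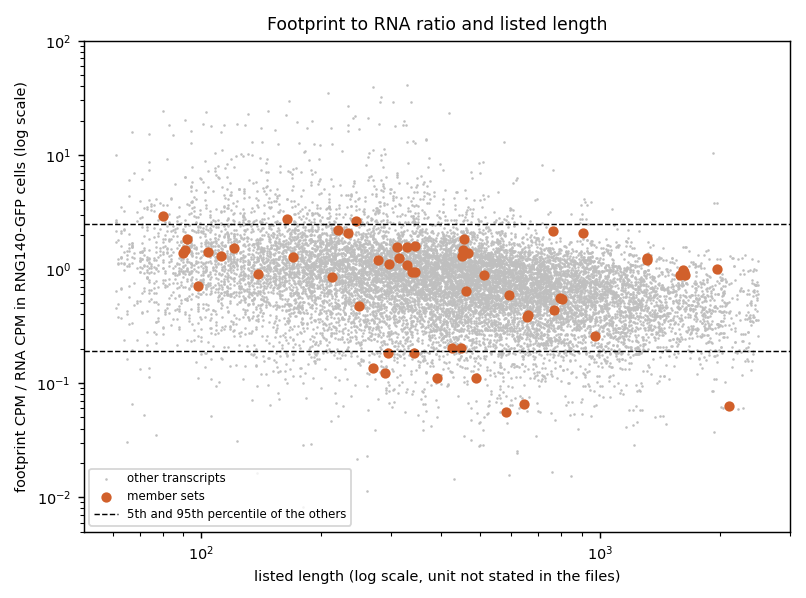
Ratio of mean footprint CPM to mean RNA CPM in RNG140-GFP cells against listed length, both on log axes, for the 58 member sets (orange) and 14203 other sets (grey; 5 with a ratio of 0 and 3 beyond the axis are not drawn); dashed lines are the 5th and 95th percentiles of the others. The 8 members under a length of 130 lie between 0.716 and 2.94, and the 9 members under the lower line have lengths from 269 to 2112.

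The 8 short sets had more RNA per length and higher ratios than the other members at the median. Per 100 units of listed length, the median RNG140-GFP RNA level was 132 CPM for sets under 130 and 2.15 CPM for the longer sets. Without division by length these medians were 147 and 13.9 CPM. RNA per length was not worked out for other transcripts, so this gap may not be particular to the members. The median footprint to RNA ratio was 1.44 for the short sets and 0.927 for the longer ones, beside 1.15 and 0.743 for other transcripts of those lengths. Short members and short other transcripts thus both had the higher ratio.

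Most presumed isoforms moved as a group, with 1 clear exception. Each group is here because it holds a member, and isoforms share reads, so like counts may be the same reads counted again. Besides the members, their groups held 6 further transcripts with a listed length, in 5 groups. Of these, 4 had the same kind of difference but fell under 2 CPM in a library: those of lengths 499, 919, 952 and 244 had 1.31 to 2.72 CPM in RNG140-GFP RNA and at most 0.223 CPM in controls. The transcript of length 470 missed the limit narrowly, at 6.44 and 6.63 against 26.5 and 33.3 CPM. Its neighbour of length 441 showed no such difference. It had 1.67 and 2.43 CPM in control and 1.52 and 1.93 CPM in RNG140-GFP RNA, with overlapping groups, although its footprints were 4.43 and 3.06 against 8.3 and 9.22 CPM. The member of this group, of length 467, had 7.05 and 7.01 against 31.6 and 37.9 CPM in RNA.

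Several members with clearly different counts lay next to each other in the tables. In 4 places members of different isoform groups were within 3 lines of each other, 12 transcripts in 9 sets altogether. The transcripts of lengths 104, 98 and 92 were on consecutive lines, and so were those of lengths 91 and 90. RNA of the 90 transcript went from 5.57 and 5.6 to 55.2 and 63.4 CPM and its footprints from 4.31 and 5.5 to 79.8 and 82.8 CPM (3.94 ± 0.14, SE). The 2 other places hold the 455 and 467 transcripts and the 454 and 344 transcripts. The tables do not state what their order follows.

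Transcripts around these members did not all show differences of that size. Beside the 92 transcript, a transcript of length 88 had 9.73 and 9.7 CPM in control and 13.3 and 11.1 CPM in RNG140-GFP RNA, and one of length 137 had 5.3 and 5.25 against 8.23 and 7.48 CPM. Between these lay a transcript of length 89 with no RNA count in controls and 2 and 0 counts in RNG140-GFP cells, but with 42 and 78 RNG140-GFP footprint counts against 1 and 2 in controls. Beside the 91 transcript, a different transcript of length 104, not a member, had 0.251 and 0.256 against 2.03 and 1.09 CPM of RNA. It resembled the members in direction and missed the CPM limit in 1 library.

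**Figure D5:**
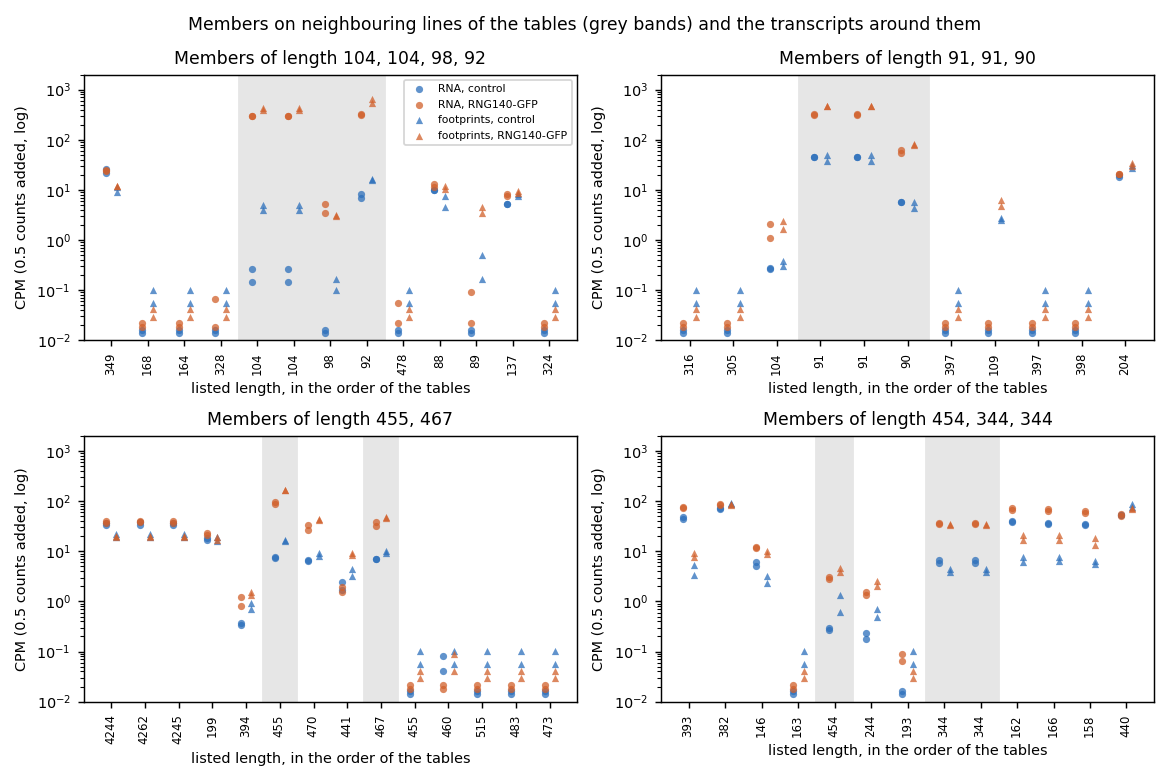
RNA (circles) and footprint (triangles) levels in CPM on a log axis, with 0.5 counts added, for the 4 places where members of different isoform groups lie within 3 lines of each other and for the transcripts up to 5 lines away, in the order of the tables; blue is control, orange RNG140-GFP, each with 2 libraries, and grey bands mark members. Orange points lie above blue ones within the bands, whereas neighbours such as those of lengths 349 and 440 show nearly the same level in both.

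The limit of the choice does not fall in a gap. The 3 sets just inside it were those of lengths 448, 426 and 277. RNA of the 448 transcript was 9.7 and 9.29 CPM in controls and 40.2 and 39 CPM in RNG140-GFP cells, and its lower RNG140-GFP value was 4.02 times the higher control value. The 426 transcript had almost the same RNA, at 9.7 and 9.29 against 40.1 and 39 CPM, and the 277 transcript 0.613 and 0.64 against 2.86 and 2.63 CPM. Footprints of these 3 sets were higher in RNG140-GFP cells: 8.05 and 8.09 against 0.996 and 1.22 CPM for the 448 and the 426 transcript and 3.45 and 3.13 against 0.996 and 1.22 CPM for the 277 transcript. The 3 sets just outside had lengths 470, 328 and 674, with ratios of 3.997, 3.96 and 3.75. RNA of the 328 transcript, which differs from the members of that length, was 4.71 and 2.63 against 18.7 and 20.7 CPM. That of the 674 transcript was 3.87 and 3.91 against 14.6 and 15 CPM. Footprints of all 3 were also higher in RNG140-GFP cells. They were 9.4 and 7.94 against 44.7 and 42.4 CPM for the 470 transcript, 5.97 and 6.11 against 32.8 and 35.4 CPM for the 328 transcript and 2.88 and 2.44 against 10.8 and 10.8 CPM for the 674 transcript. Members near the limit and the transcripts next to them thus had a like pattern in both assays.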

How the data were processed

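Each of the 8 tables the authors deposited lists transcripts by identifier, with a length and a read count per transcript. Per the values, the deposited counts are whole numbers and not normalized, and the deposited length is some other quantity with no stated unit. The submitters' processing notes name CASAVA 1.8, Bowtie2 2.1.0 and TopHat2 2.0.9. What each tool did, which genome and annotation were used and how reads were counted is not given in the sources used here. The 7505 transcripts without a length were not used.

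CPM values divide counts by column sums. Footprint counts of all transcripts were tested with the quasi-likelihood F-test of edgeR 4.0.16 (R 4.3.3, TMM scaling, minimum count 10), on the 4 footprint libraries alone, with 2 residual degrees of freedom and Benjamini-Hochberg adjustment. The threshold was 0.05, and the standard error was the change divided by the square root of F. The test was checked on simulated data. Footprint libraries, at 4908885 counts for the shallowest, set the precision. Ratio intervals are exact binomial (95%) and cover counting error only. Alternatives were DESeq2 1.42.0, other scalings and filters, all 8 libraries in 1 fit, a replicate block and left-out libraries.

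Members and lists were chosen with earlier results of these data known. Values in every library are given for the 10 sets with the most footprints, the 5 largest and 5 smallest footprint changes, sets without control RNA, groups of 3 or more members, and 3 sets on either side of the limit. Other transcripts were singled out after their values were seen.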

Additional observations from a re-analysis of the deposited data

How the results depend on the processing

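The 50 footprint calls among the members were 48 in DESeq2, 51 without a filter on low counts, 52 with column sums, 49 at a threshold of 0.01 and 34 at a minimum count of 50, where 34 sets were tested. They were 50 with other size factors (RLE), with all 8 libraries in 1 fit, with 1 transcript per set of identical counts and with a replicate block. Same-numbered footprint libraries deviated together by r = 0.00698, and the labels do not say that equal numbers mark a pair. Leaving out each footprint library in turn gave 47 to 52 calls, the lone library being assumed to vary like the others. No member set had a negative change in any of these fits. The calls of the 248 and 277 transcripts were lost in DESeq2 and without the first control footprint library, where that of the 2112 transcript was lost too. The 248 transcript was also lost without the second control library. The 490 and 390 transcripts were called with column sums, without the second control library and without the second RNG140-GFP library. The 64 member transcripts became 96 at 3-fold, 32 at 8-fold, 82 at a minimum of 1 CPM, 45 at 5 CPM, 58 with TMM-scaled CPM and 64 without length limits. Leaving out each RNA library in turn gave 67 to 75. The median footprint change of 3.35 was 2.99 with 2 counts added and 3.15 with 1 set per isoform group. The median footprint to RNA ratio of 0.963, with 0.5 counts added, became 0.97 and 1.03. Members were shorter by 60 at the median than the other sets within the limits, and by 13 than all transcripts with a length. Depth limits the sets with few control footprints: 9 had none and 8 had 1 to 3 counts.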
